A study of Homo sapiens with 12 samples.

Results

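The genes described here are 41 human genes of the G2 phase and mitosis, in an expression table of 21574 features. They were matched by symbol from a list of genes with known roles in mitosis, with no threshold on their values, and all 41 were found. The libraries come from MDA-231-LM2, a derivative of the triple-negative breast cancer line MDA-MB-231 that was selected for lung metastasis. Of its 4 groups, each with 3 libraries, Ctrl is the control population and TMEM216 the population named for that gene, which encodes a transition zone protein of the primary cilium. Ctrl+IGF1 and TMEM216+IGF1 are the same populations given IGF1, insulin-like growth factor 1. The labels give no dose or time for IGF1, no method for changing TMEM216, no number of clones and no word on whether the replicates of a group were grown separately. The p-values below therefore rest on library-to-library spread alone, part or all of which may be technical.

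Cells enter mitosis when CDK1, bound to B-type cyclins, is dephosphorylated by the CDC25 phosphatases and activated. Aurora and Polo-like kinases, kinesin motors and kinetochore proteins then build the spindle, the spindle checkpoint holds the anaphase-promoting complex until chromosomes are attached, and cytokinesis proteins divide the cell. The genes for these proteins are transcribed late in the cell cycle, through the CHR element (cell cycle genes homology region) and CCAAT boxes bound by the MuvB complexes, FOXM1 and NF-Y. They therefore serve as a common measure of proliferation in tumour cells. In a bulk library, a change in the share of cells in G2 or mitosis and a change in RNA per such cell cannot be told apart.

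The promoters show what these genes share in sequence, independent of their levels. RefSeq promoter sequences (GRCh38.p14, 250 bases before to 50 after the start) were matched for 34 of the 41 genes, at 44 starts. TTK, FOXM1, UBE2C, TPX2, AURKA, BUB3 and BIRC5 had no entry. Searched on either strand, the CHR forms were TTTGAA, its variant TTTAAA and the rarer TTCGAA, the last 2 of which read the same on both strands. At least 1 form occurred in the window of 32 of 34 genes, all but CCNA2 and AURKB. By start, this was 37 of 44 promoters, or 84.1%, against 25.1% of the 35116 promoters of the table. In the 300-base window it also occurred in 74.2% of 89 other G2/M genes and 16.7% of 42 G1/S genes. In the 100 bases before the start it occurred in 23 of 34 genes, or 67.6%, against 10.5% of the 27305 genes of the table. There the shares of the other G2/M genes and the G1/S genes were 27.0% and 11.9%. Over the 24 promoters with a site in those 100 bases, the first base of the site nearest the start lay at a median of 29 bases upstream, and in 20 of them within 50 bases. A CCAAT box (CCAAT on either strand) was in the 300-base window of 28 of 34 genes, or 82.4%, against 39.7% of all genes. It was also in that window of 66.3% of 89 other G2/M genes and 61.9% of 42 G1/S genes. Both motifs together were within 100 bases of the start in 19 of 34 genes, or 55.9%, against 2.07% of all genes. This share was 16.9% among 89 other G2/M genes and 4.76% among 42 G1/S genes. Median GC content of the 100 bases was 61% for the matched genes and 60% for all genes. These matches are letters in a window and no measure of binding.

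The sites of 8 genes, chosen for their roles below, are shown as 30 bases 5′ to 3′ with the CHR form nearest the start in capitals (in CENPE a further TTTAAA directly before it is in lower case). CCNB1 was read on the + strand at chr5:69167108-69167137, CCNB2 at chr15:59105105-59105134 and CDK1 at chr10:60778453-60778482. PLK1 was read on the + strand at chr16:23678848-23678877, CDC20 at chr1:43358904-43358933 and PTTG1 at chr5:160421814-160421843. KIF20A was read on the + strand at chr5:138179059-138179088, and CENPE on the - strand at chr4:103198388-103198417.
CCNB1: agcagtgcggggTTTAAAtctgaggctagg
CCNB2: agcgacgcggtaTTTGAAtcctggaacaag
CDK1: tagcgcggtgagTTTGAAactgctcgcact
PLK1: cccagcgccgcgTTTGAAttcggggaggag
CDC20: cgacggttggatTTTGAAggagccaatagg
PTTG1: cgcgagttgtggTTTAAAccaggagtgcgc
KIF20A: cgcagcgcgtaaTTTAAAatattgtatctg
CENPE: ggaaattttaaaTTTAAAggcggggcggcc

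The spacing of both motifs is seen in 3 longer windows, each the 120 bases before the start, with no GENCODE exon inside and with CHR forms and CCAAT boxes of either strand in capitals (here TTCAAA and also ATTGG are the other-strand readings of TTTGAA and CCAAT, and in MKI67 a TTTGAA and an ATTGG share bases). KIF11 lies on the + strand at chr10:92593010-92593129, CENPF on the + strand at chr1:214603075-214603194 and MKI67 on the - strand at chr10:128126424-128126543.
KIF11: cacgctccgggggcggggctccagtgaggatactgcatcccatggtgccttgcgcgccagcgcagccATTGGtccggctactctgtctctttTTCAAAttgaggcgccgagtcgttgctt
CENPF: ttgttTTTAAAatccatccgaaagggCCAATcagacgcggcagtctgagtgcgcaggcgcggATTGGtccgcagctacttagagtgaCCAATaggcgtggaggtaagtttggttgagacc
MKI67: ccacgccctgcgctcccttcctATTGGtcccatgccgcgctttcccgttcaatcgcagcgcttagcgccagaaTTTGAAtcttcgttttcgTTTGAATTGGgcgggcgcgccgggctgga

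**Figure D1:**
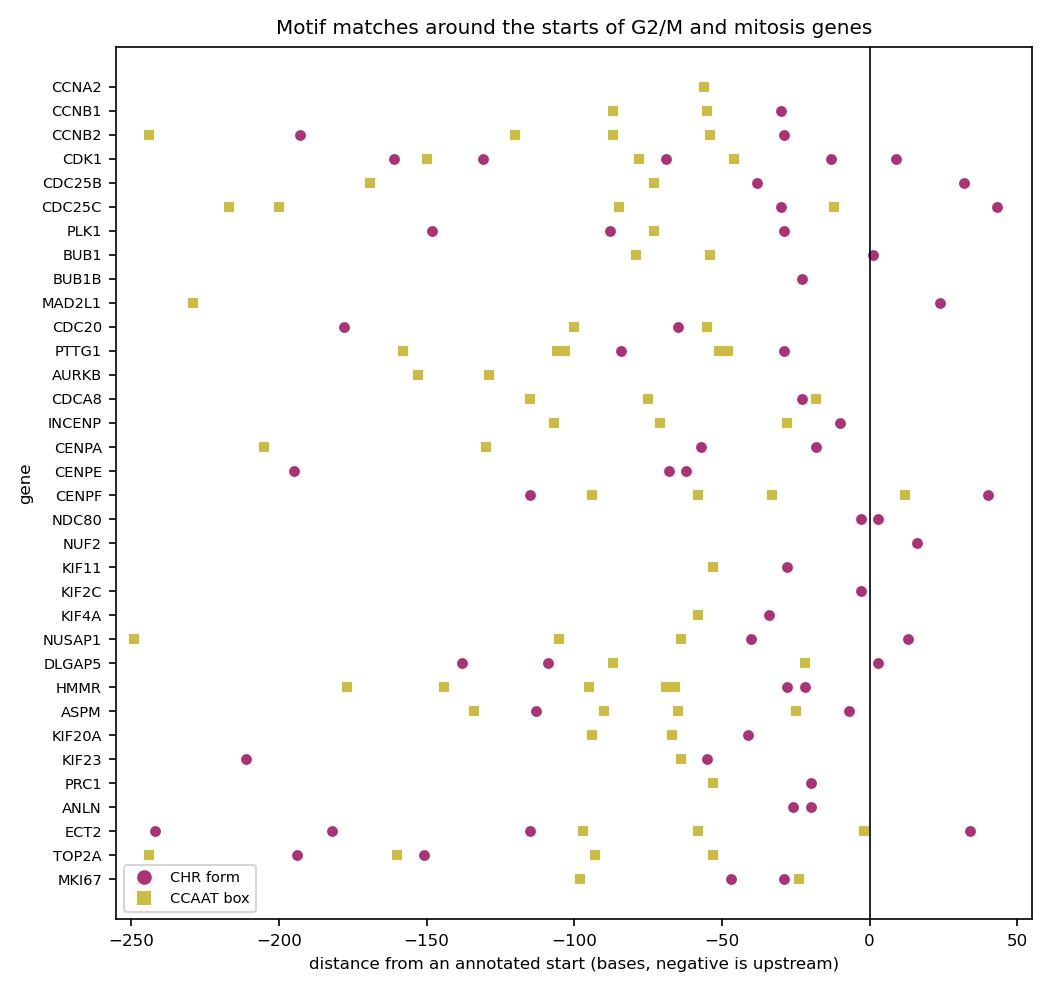
Positions of CHR forms (circles) and CCAAT boxes (squares) around the annotated starts of the 34 matched genes, in bases from the start with upstream negative; genes with several starts carry the matches of all of them. Of 60 circles, 25 sit within 50 bases upstream of a start, 16 lie more than 100 bases upstream and 11 downstream.

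The values are TPM, a transcript level per unit of length scaled to the same total in each library, so read depth is unknown. As a check of the labels, TMEM216 stood at 30.1, 24.0 and 25.1 TPM in Ctrl and 24.6, 27.5 and 29.8 in Ctrl+IGF1, against 163, 222 and 249.6 in TMEM216 and 232, 221 and 224 in TMEM216+IGF1. The fitted change was 2.94 (SE 0.14, limma adjusted p = 9.35e-07) without IGF1. Among markers of this basal, mesenchymal line, VIM was at 5755 to 7272 TPM and ESR1, PGR, CDH1 and FOXA1 were below 1 TPM in every library, although ERBB2 (31.7 to 42.9), EPCAM (11.9 to 15.7) and GATA3 (5.80 to 8.77) were detected. The 14 markers of immune, endothelial, fat, fibroblast, liver and blood cells summed to 142 to 214 TPM, nearly all of it CD68 (a lysosomal protein also found outside macrophages, 139.96 to 212 TPM), and CD3E, ADIPOQ and HBB were listed at 0 in every library. One library stood apart: Ctrl+IGF1 replicate 3 had the largest ribosomal protein share, 16.9% of TPM against 12.4% to 14.6% in the other 11, and a median deviation over all features of -0.16 on the log2 scale. Values without it are given beside the role medians that include it and beside many of the gene changes that it moved. TMEM216 replicate 1 came next, with a ribosomal protein share of 14.6% and a median deviation of -0.05. Role medians without TMEM216 replicate 1 were not computed.

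All 41 genes were well expressed and passed the filter of 1 TPM in 3 libraries. Their mean levels ran from HMMR, a hyaluronan receptor and spindle protein at 11.6 to 19.1 TPM over the 12 libraries, to UBE2C, the ubiquitin-conjugating enzyme of the anaphase-promoting complex at 721 to 995 TPM. Together they made up 7736 TPM in Ctrl+IGF1 replicate 3 and 9459 TPM in TMEM216 replicate 3, the lowest and highest libraries.

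**Figure D2:**
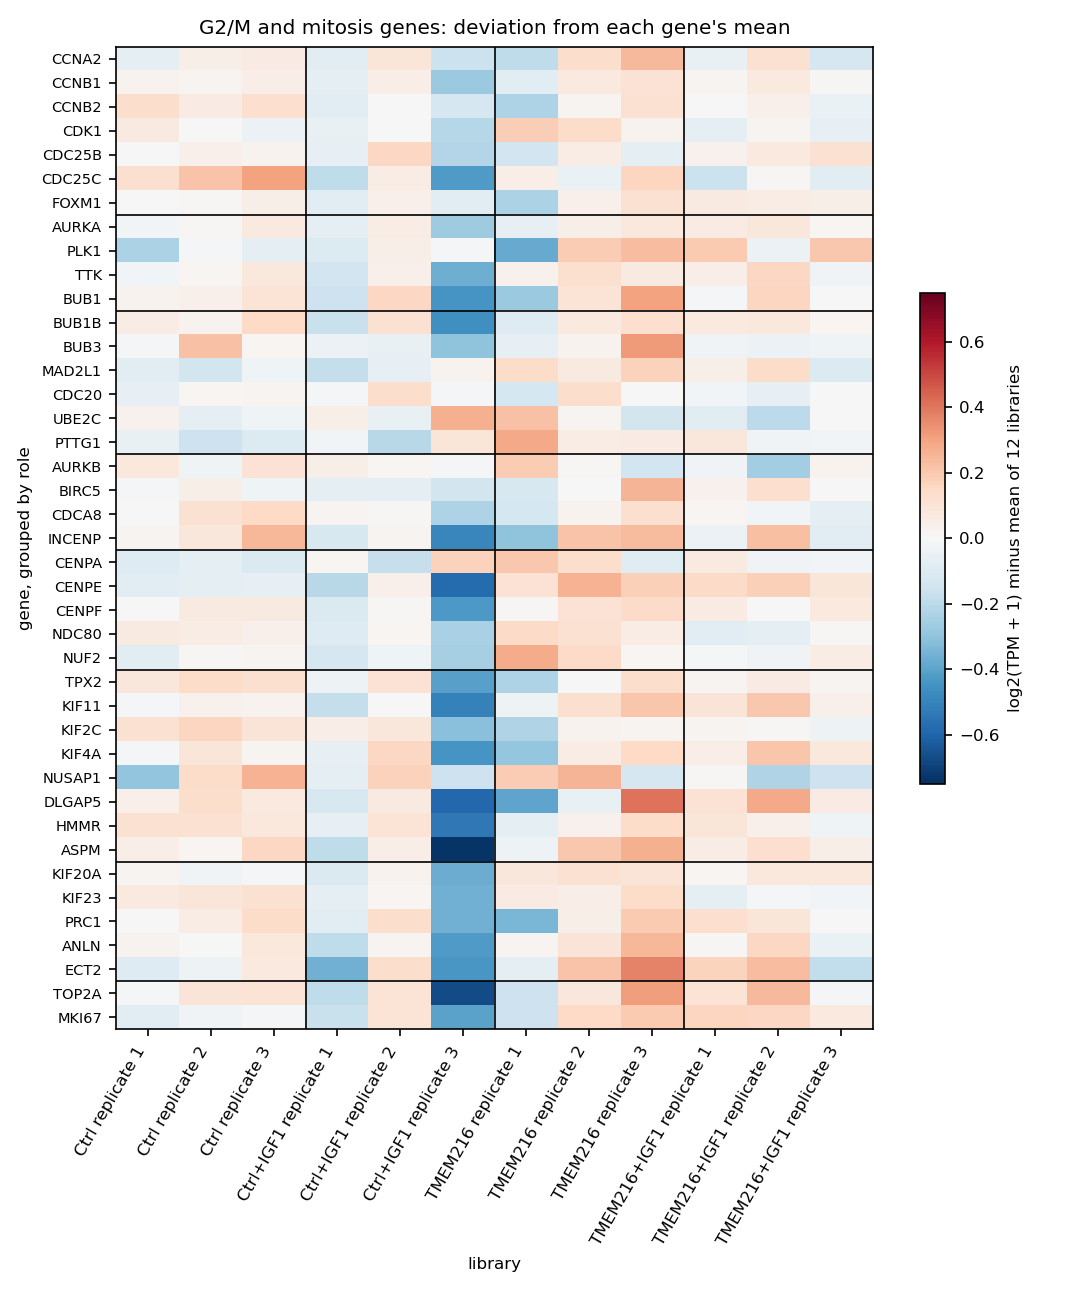
Deviation of each of the 41 genes (rows, grouped by role) from its own mean over 12 libraries (columns), on the log2(TPM + 1) scale. Ctrl+IGF1 replicate 3 is the lowest library for 30 of 41 genes and TMEM216 replicate 3 the highest for 19.

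No gene of the set passed the test in any of the 7 comparisons made (limma on log2(TPM + 1), Benjamini-Hochberg adjusted p under 0.05 over 13071 tested features). The comparisons were TMEM216 against Ctrl without and with IGF1, IGF1 in each population, their interaction, and both averages. Comparisons that share the Ctrl or TMEM216 libraries are not independent of each other. Standard errors of the 41 genes were small, with a median of 0.10 on the log2 scale, so in 6 of the 7 comparisons no gene's 95% interval reached a change of 1. The bounds lay between -0.71 and 0.78 there, and the interaction's widest bound was 1.04, for DLGAP5.

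In TMEM216 against Ctrl without IGF1, 0 of 41 genes were called, where 1.09% of all features were. The median change was 0.02, with 23 genes above 0 and 18 below, beside -0.05 over all features. Quantile normalization and median-of-ratios scaling put 27 and 30 genes above 0. The median was 0.07 without TMEM216 replicate 1 and -0.03 without TMEM216 replicate 3. At an unadjusted p under 0.05, 2 genes were higher (PTTG1 and MAD2L1) and none lower, where 3.17% of all features were higher. The 3 libraries of each group did not overlap for 4 genes that were higher in TMEM216 (CENPE, KIF20A, MAD2L1 and PTTG1), where 6.3% of all features were higher in that way. KIF2C alone was lower without overlap, where 15.5% of all features were.

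With IGF1 in both populations, 0 of 41 genes were called between TMEM216 and Ctrl, where 1.61% of all features were. The fitted change was above 0 for 37 genes, with a median of 0.15 beside 0.05 over all features, and 35 and 32 genes stayed above 0 under quantile and median-of-ratios scaling. Without Ctrl+IGF1 replicate 3 the median was 0.06 and 30 genes were above 0. At an unadjusted p under 0.05, 8 genes were higher, namely CENPE, KIF11, KIF20A, MKI67, ASPM, ANLN, TTK and CENPF, and none lower, where 9.98% of all features were higher. Groups did not overlap for 5 higher genes (BIRC5, CENPE, FOXM1, KIF11 and NUF2), where 12% of all features were higher without overlap.

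For IGF1 in Ctrl cells, 0 of 41 genes were called, where 0.0306% of all features were. Fitted changes were below 0 for 35 genes, with a median of -0.16 beside -0.09 over all features, and median-of-ratios scaling left 11 genes above 0 in place of 6. The median was -0.06 without Ctrl+IGF1 replicate 3. At an unadjusted p under 0.05, 6 genes were lower (CDC25C, KIF23, ASPM, CENPF, NDC80 and ANLN) and none higher, where 5.67% of all features were lower. Without overlap, 7 genes were lower with IGF1 (BIRC5, BUB3, CCNB2, CDC25C, KIF23, KIF2C and NDC80), where 11.8% of all features were.

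For IGF1 in TMEM216 cells, 0 of 41 genes were called, where 0.0153% of all features were, and 0 reached an unadjusted p under 0.05. The median change was -0.03, with 17 genes above 0, beside 0.02 over all features, of which 56.1% were above 0. Without overlap, CDK1, KIF20A, KIF23 and NDC80 were lower with IGF1, where 3.69% of all features were. For the interaction, the IGF1 change in TMEM216 cells minus that in Ctrl cells, 0 of 41 genes were called, where 0.0153% of all features were, and 0 reached an unadjusted p under 0.05. Its median was 0.14 beside 0.11 over all features, and 0.05 beside 0.05 without Ctrl+IGF1 replicate 3. Median-of-ratios scaling moved the median of all features by about 0.10, to 0.01, and that of the 41 genes to 0.03.

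Averaged over IGF1, 0 of 41 genes were called between TMEM216 and Ctrl, where 5.22% of all features were. The median change was 0.08 beside -0.00054 over all features, and 32 genes were above 0, the same number as under quantile and median-of-ratios scaling. Without Ctrl+IGF1 replicate 3 the median was 0.02, with 28 genes above 0. At an unadjusted p under 0.05, 8 genes were higher (CENPE, MAD2L1, NUF2, KIF11, KIF20A, PTTG1, MKI67 and ANLN) and none lower, where 8.93% of all features were higher. CENPE alone was higher in all 6 TMEM216 libraries than in all 6 Ctrl libraries, where 1.97% of all features were. For IGF1 averaged over the populations, 0 of 41 genes were called, where 0.0536% of all features were. There, 6 genes were lower at an unadjusted p under 0.05 (BUB3, CDC25C, CDK1, KIF23, NDC80 and NUF2) and none higher, where 4.19% of all features were lower. Fitted changes were below 0 for 36 of 41 genes and for 8152 of the 13071 tested features. The median was -0.09 beside -0.03 over all features. Without Ctrl+IGF1 replicate 3 the median of the 41 genes was -0.04. KIF23 and NDC80 were lower in all 6 IGF1 libraries than in all 6 others, where 0.168% of all features were.

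**Figure D3:**
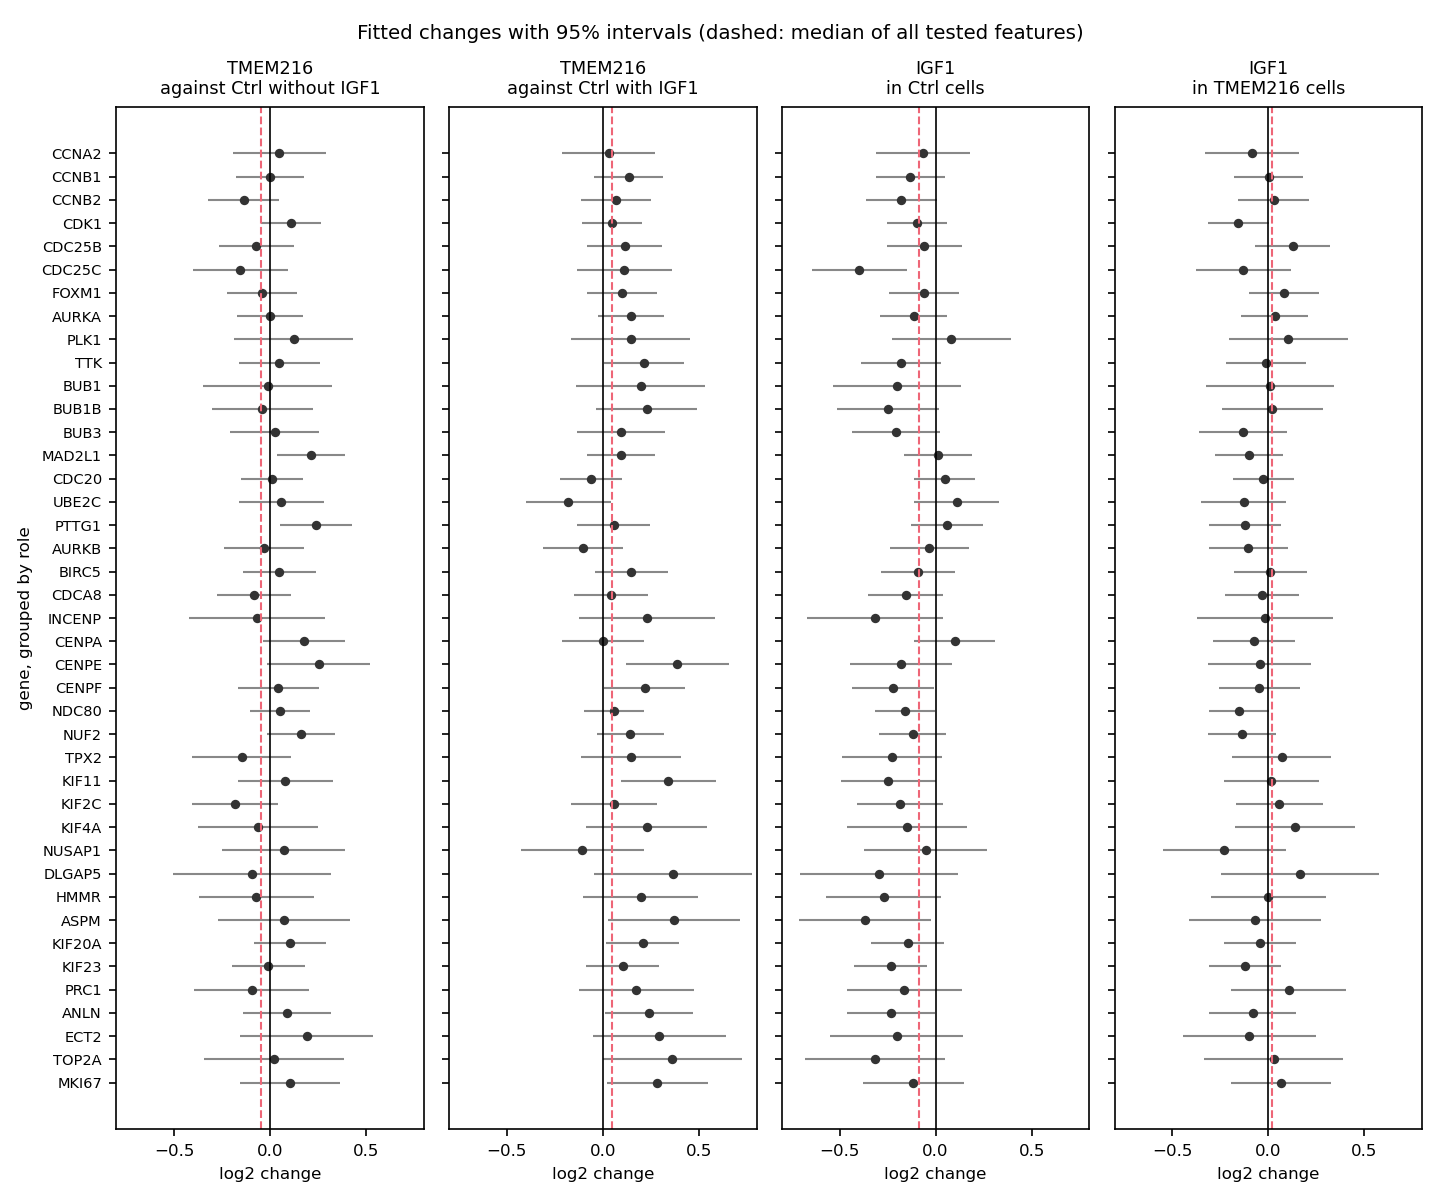
Fitted log2 change of each of the 41 genes (points) with its 95% interval (lines) in 4 comparisons; the dashed line is the median of all tested features. Points lie to the right for 37 genes in TMEM216 against Ctrl with IGF1 and to the left for 35 genes for IGF1 in Ctrl cells, and no gene passed the adjusted threshold.

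Among the genes of mitotic entry, the cyclins CCNA2, CCNB1 and CCNB2, their kinase CDK1, the phosphatases CDC25B and CDC25C and the transcription factor FOXM1 all had fitted changes above 0 with TMEM216 in the presence of IGF1, with a median of 0.10 over the 7. That median was 0.02 without Ctrl+IGF1 replicate 3, with 4 of 7 above 0. In the absence of IGF1, 2 of 7 were above 0 and the median was -0.04. TMEM216 replicate 1 lay below the mean of 12 libraries for all of these genes but CDK1 and CDC25C. CCNB1, the cyclin that drives entry into mitosis, was at 530.5, 529 and 539.6 TPM in Ctrl, 495, 539.7 and 429.8 in Ctrl+IGF1, 492, 548 and 561 in TMEM216, and 529, 548 and 525 in TMEM216+IGF1. All 4 groups overlapped, and the low value of Ctrl+IGF1 replicate 3 set its spread. The TMEM216 change in CCNB1 was -0.00065 (SE 0.08, limma adjusted p = 0.999) without IGF1 and 0.13 (SE 0.08, limma adjusted p = 0.448) with it, the latter 0.05 without Ctrl+IGF1 replicate 3.

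CDK1 was at 469, 448 and 434 TPM in Ctrl, 431, 449 and 386 in Ctrl+IGF1, 509, 492 and 456 in TMEM216, and 425, 453 and 429.5 in TMEM216+IGF1. The 3 TMEM216 libraries all lay above the 3 TMEM216+IGF1 libraries, with a fitted change of -0.16 (95% interval -0.31 to 0.0014) for IGF1 in TMEM216 cells. The Ctrl groups overlapped for CDK1.

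CDC25C, which removes the inhibitory phosphates from CDK1, had the smallest p of the 41 genes for IGF1 in Ctrl cells. It was at 44.6, 47.7 and 50.7 TPM in Ctrl, 35.8, 42.6 and 30.3 in Ctrl+IGF1, 42.4, 39.6 and 46.0 in TMEM216, and 36.6, 41.2 and 38.8 in TMEM216+IGF1. All Ctrl+IGF1 libraries were below all Ctrl libraries, while the TMEM216 groups overlapped. The change was -0.40 (SE 0.11, limma adjusted p = 0.673) in Ctrl cells and -0.28 without Ctrl+IGF1 replicate 3. CDC25C overlaps exons of FAM53C on the other strand, and the sources used here do not say whether reads were counted by strand. If they were not, reads in the shared stretch may belong to either gene. The length of that stretch was not measured. The same holds for CCNA2 with EXOSC9, FOXM1 with ITFG2, KIF20A with BRD8 and CDC23, KIF4A with PDZD11 and ANLN with KIAA0895. CENPA, NUSAP1 and PRC1 share exon sequence with a gene on the same strand.

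FOXM1, the transcription factor that binds many of these promoters with MuvB, was at 249.7, 252 and 259 TPM in Ctrl, 236, 257 and 237 in Ctrl+IGF1, 213, 257 and 271 in TMEM216, and 263, 260.5 and 258 in TMEM216+IGF1. Its change with TMEM216 was -0.04 (95% interval -0.22 to 0.14) without IGF1 and 0.10 (95% interval -0.08 to 0.28) with it. With IGF1 the FOXM1 groups did not overlap, but the nearest libraries, at 257 and 258 TPM, were close. CCNA2, the cyclin of S phase and G2, ranged from 136 to 184 TPM over the 12 libraries and CDC25B from 137 to 178 TPM. Their groups overlapped in all 4 simple comparisons, and no fitted change of either in those comparisons was beyond 0.13. CCNB2 was at 175, 166 and 173 TPM in Ctrl and 149.8, 159 and 146 in Ctrl+IGF1, which did not overlap, with a change of -0.18 (SE 0.08, limma adjusted p = 0.673).

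The 4 mitotic kinases AURKA, PLK1, TTK and BUB1 had fitted TMEM216 changes between -0.01 and 0.12 without IGF1 and between 0.15 and 0.21 with it. The median with IGF1 was 0.17, and 0.08 without Ctrl+IGF1 replicate 3. PLK1, which acts at centrosomes and kinetochores and in cytokinesis, was at 128, 150.2 and 144 TPM in Ctrl, 141, 156 and 149.9 in Ctrl+IGF1, 116, 173 and 178 in TMEM216, and 174, 147 and 175 in TMEM216+IGF1. The TMEM216 group alone held both the lowest and the highest of the 12 PLK1 values, which widened its intervals (-0.19 to 0.43 without IGF1). TTK, the checkpoint kinase also called MPS1, was at 64.7, 73.5 and 55.2 TPM in Ctrl+IGF1 and 74.2, 79.6 and 70.1 in TMEM216+IGF1, groups that overlapped. Its change there was 0.21 (SE 0.10, limma adjusted p = 0.305), and 0.11 without Ctrl+IGF1 replicate 3. AURKA, which matures the spindle poles, ranged from 327 to 416 TPM, with its lowest value again in Ctrl+IGF1 replicate 3. BUB1, a checkpoint kinase at kinetochores, ranged from 108 in that library to 182 TPM in TMEM216 replicate 3.

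In the spindle checkpoint and anaphase-promoting complex group, 5 of 6 genes were fitted above 0 with TMEM216 without IGF1 and 4 of 6 with it, at medians of 0.04 and 0.08, the latter 0.05 without Ctrl+IGF1 replicate 3. PTTG1 is securin, the inhibitor of separase that holds sister chromatids together. It was at 664, 619 and 642 TPM in Ctrl, 681, 597 and 736 in Ctrl+IGF1, 839.9, 716 and 721 in TMEM216, and 730.4, 678 and 679 in TMEM216+IGF1. Every TMEM216 library was above every Ctrl library, and the groups with IGF1 overlapped. The PTTG1 change without IGF1 was 0.24 (SE 0.09, limma adjusted p = 0.252), and 0.16 without TMEM216 replicate 1.

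MAD2L1 encodes the checkpoint protein MAD2, which binds and holds CDC20. It was at 76.0, 72.8 and 78.5 TPM in Ctrl, 70.9, 76.9 and 81.9 in Ctrl+IGF1, 88.6, 84.2 and 90.8 in TMEM216, and 82.7, 88.6 and 74.7 in TMEM216+IGF1. Here too all 3 TMEM216 libraries lay above all 3 Ctrl libraries, and the groups with IGF1 overlapped. The MAD2L1 change was 0.21 (SE 0.08, limma adjusted p = 0.277) without IGF1 and 0.10 (SE 0.08, limma adjusted p = 0.585) with it, the latter 0.15 without Ctrl+IGF1 replicate 3.

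UBE2C was at 843, 787 and 807 TPM in Ctrl, 850.5, 794 and 995 in Ctrl+IGF1, 960.0, 838 and 751 in TMEM216, and 778, 721 and 824 in TMEM216+IGF1. Ctrl+IGF1 replicate 3, the lowest library for most of the set, was the highest for UBE2C. CDC20, the activator of the anaphase-promoting complex, was among the steadiest genes, at 354 to 425 TPM, with fitted changes between -0.06 and 0.05 in the 4 simple comparisons. BUB1B, which encodes the checkpoint protein BUBR1, ranged from 49.7 TPM in Ctrl+IGF1 replicate 3 to 76.5 TPM in Ctrl replicate 3, and its TMEM216 change with IGF1 was 0.23 (95% interval -0.04 to 0.49), or 0.08 without the former library. BUB3, the partner that places BUB1 and BUBR1 on kinetochores, had group means of 376 to 442 TPM.

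**Figure D4:**
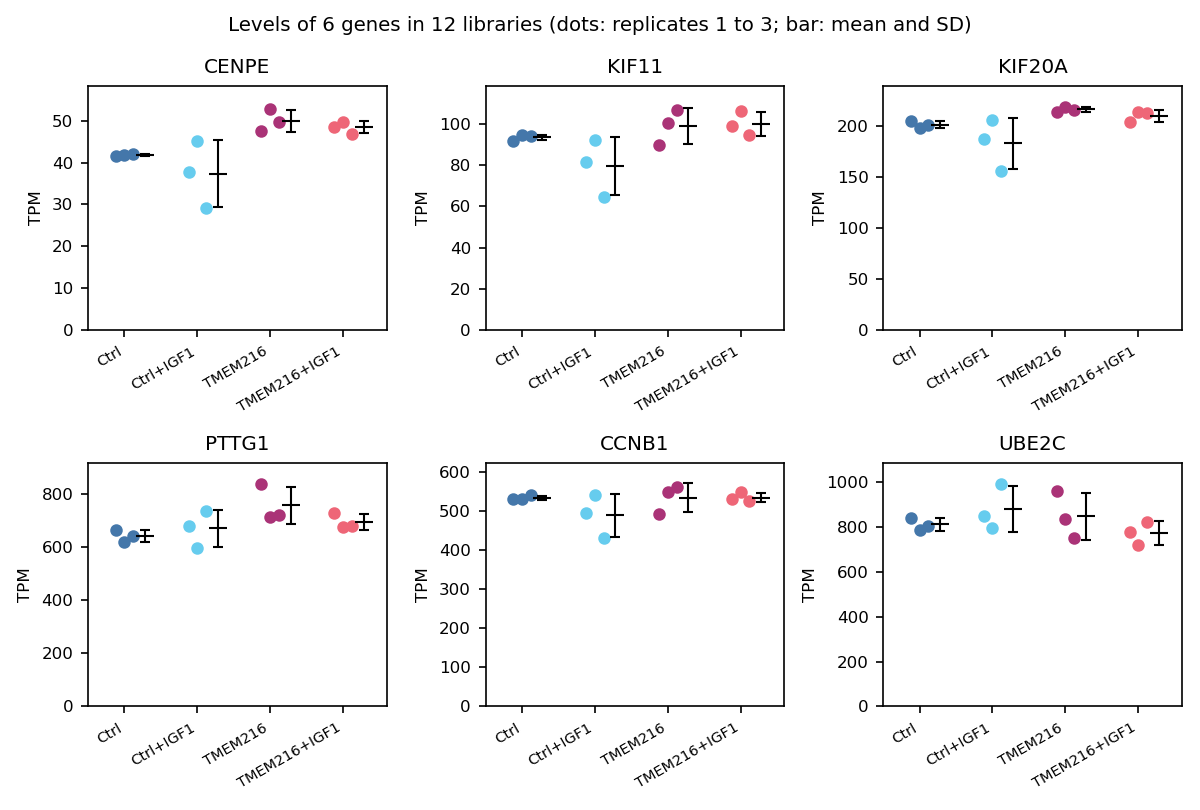
TPM of 6 genes in the 12 libraries (dots, replicates 1 to 3 from left to right, with the group mean and SD as a bar beside them). CENPE is above its Ctrl and Ctrl+IGF1 values in all 6 TMEM216 libraries, and the low dot of Ctrl+IGF1 replicate 3 recurs in CENPE, KIF11, KIF20A and CCNB1 but not in PTTG1 or UBE2C.

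The chromosomal passenger complex, AURKB with its partners BIRC5 (survivin), CDCA8 (borealin) and INCENP, corrects faulty attachments of chromosomes to the spindle. AURKB ranged from 276 to 378 TPM, with TMEM216 changes of -0.03 (95% interval -0.24 to 0.17) without IGF1 and -0.10 (95% interval -0.31 to 0.10) with it. BIRC5 was at 149, 149.6 and 143 TPM in Ctrl+IGF1, below both Ctrl (156, 162 and 154) and TMEM216+IGF1 (161, 172 and 158) without overlap. TMEM216 without IGF1 spread over a wider BIRC5 range of 145 to 188 TPM. CDCA8 and INCENP had group means of 101 to 112 and 36.1 to 44.7 TPM. Without IGF1 the median TMEM216 change of the complex was -0.05, and with IGF1 it was 0.10, or 0.02 without Ctrl+IGF1 replicate 3. TMEM216 replicate 1 lay below the gene's mean for BIRC5, CDCA8 and INCENP and above it for AURKB.

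For the centromere and kinetochore genes, all 5 fitted TMEM216 changes were above 0 without and with IGF1, at medians of 0.16 without IGF1 and 0.14 with it. The latter was 0.09 without Ctrl+IGF1 replicate 3, with 4 of 5 above 0. CENPE, a kinesin that carries chromosomes to the spindle equator, came nearest to the threshold of all 41 genes. It was at 41.5, 41.9 and 42.1 TPM in Ctrl, 37.9, 45.1 and 29.1 in Ctrl+IGF1, 47.5, 52.8 and 49.8 in TMEM216, and 48.6, 49.8 and 46.9 in TMEM216+IGF1. The lowest TMEM216 value, 46.9, was above the highest Ctrl value, 45.1. The CENPE change was 0.25 (SE 0.12, limma adjusted p = 0.410) without IGF1, 0.39 (SE 0.12, limma adjusted p = 0.155) with it and 0.32 (SE 0.09, limma adjusted p = 0.0546) averaged over both.

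Over the 21 alternatives run for the averaged comparison, CENPE kept its direction in all and passed the threshold in 6, with limma adjusted p from 0.00851 to 0.126. Without Ctrl+IGF1 replicate 3, the lowest CENPE library, its averaged change was 0.24 (limma adjusted p = 0.0311), and its change with IGF1 was 0.22 (limma adjusted p = 0.281). Without Ctrl+IGF1 replicate 2 it was 0.39 (limma adjusted p = 0.00851), and the change with IGF1 alone was 0.53 (limma adjusted p = 0.0256).

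NDC80 and NUF2 form the arm of the kinetochore that grips microtubules. NDC80 was at 179, 177 and 175 TPM in Ctrl, 159, 173 and 144 in Ctrl+IGF1, 189, 185 and 177 in TMEM216, and 161, 162 and 171 in TMEM216+IGF1. All 6 IGF1 libraries were below all 6 libraries without IGF1. The averaged IGF1 change in NDC80 was -0.16 (SE 0.05, limma adjusted p = 0.650), with -0.16 in Ctrl cells and -0.15 in TMEM216 cells. Leaving out single libraries moved the averaged value between -0.19 and -0.12.

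NUF2 was at 178, 190.4 and 192 TPM in Ctrl, 173, 185 and 159 in Ctrl+IGF1, 229, 209 and 191 in TMEM216, and 188, 185 and 196 in TMEM216+IGF1. With IGF1 its groups did not overlap, though the nearest libraries were both near 185 TPM, and without IGF1 they did. The averaged TMEM216 change in NUF2 was 0.15 (SE 0.06, limma adjusted p = 0.155). CENPF, a large kinetochore and nuclear matrix protein, was at 109.5, 119 and 87.5 TPM in Ctrl+IGF1 and between 118 and 131 TPM in the other 9 libraries. CENPA, the histone variant that marks the centromere, ran from 62.4 to 81.2 TPM, and the highest value of its Ctrl+IGF1 group was in replicate 3.

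The 8 spindle motors and microtubule proteins had a median TMEM216 change of -0.07 without IGF1 and 0.21 with it, and a median of -0.24 for IGF1 in Ctrl cells. The last 2 were 0.04 and -0.08 without Ctrl+IGF1 replicate 3. TMEM216 replicate 1 lay below the gene's mean for every gene of this role but NUSAP1, down to -0.40 for DLGAP5. KIF11 is the kinesin that pushes the spindle poles apart. It was at 92.0, 94.5 and 94.1 TPM in Ctrl, 81.5, 92.4 and 64.7 in Ctrl+IGF1, 89.9, 100.3 and 107 in TMEM216, and 98.9, 106 and 94.8 in TMEM216+IGF1. With IGF1 every TMEM216 library was above every Ctrl library, and without IGF1 the groups overlapped. The KIF11 change with IGF1 was 0.34 (SE 0.11, limma adjusted p = 0.176). It was 0.20 (limma adjusted p = 0.372) without Ctrl+IGF1 replicate 3 and 0.46 (limma adjusted p = 0.0440) without Ctrl+IGF1 replicate 2.

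ASPM, a spindle pole protein, was at 58.3, 56.8 and 62.9 TPM in Ctrl, 49.1, 58.2 and 33.4 in Ctrl+IGF1, 54.9, 64.9 and 68.1 in TMEM216, and 58.7, 61.7 and 58.0 in TMEM216+IGF1. Replicate 3 of Ctrl+IGF1 deviated by -0.74 from the gene's mean, the largest deviation of any of the 41 genes in any library. The ASPM change for IGF1 in Ctrl cells was -0.37 (SE 0.16, limma adjusted p = 0.673), and -0.15 without that library. DLGAP5, a protein that stabilises kinetochore fibres, had the largest interaction estimate, 0.46 (SE 0.27, limma adjusted p = 0.754), and TPX2, the activator of AURKA on the spindle, the smallest interaction p, with 0.30 (SE 0.17, limma adjusted p = 0.754). These were 0.27 for DLGAP5 and 0.15 for TPX2 without Ctrl+IGF1 replicate 3. TPX2 was at 395, 409 and 404 TPM in Ctrl, 362, 400.3 and 280.4 in Ctrl+IGF1, 316, 371 and 408 in TMEM216, and 377, 388 and 377 in TMEM216+IGF1. Its groups overlapped in all 4 simple comparisons. NUSAP1, which bundles spindle microtubules, spread over 170.4 to 251 TPM and was the one gene of the role fitted below 0 with TMEM216 in the presence of IGF1, at -0.11, or -0.18 without Ctrl+IGF1 replicate 3. KIF2C, a microtubule-depolymerising kinesin, and the chromokinesin KIF4A completed the role with HMMR, at mean levels over groups of 136 to 154 TPM for KIF2C and 36.0 to 41.8 TPM for KIF4A.

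Among the 5 midzone and cytokinesis genes, all fitted TMEM216 changes with IGF1 were above 0 at a median of 0.21, and all changes for IGF1 in Ctrl cells below 0 at a median of -0.20. Without Ctrl+IGF1 replicate 3 the medians were 0.10 and -0.09, with 4 of 5 above 0 in the former and all 5 below 0 in the latter. KIF20A, a kinesin of the central spindle, was at 205, 198 and 201 TPM in Ctrl, 187, 206 and 156 in Ctrl+IGF1, 215, 219 and 216 in TMEM216, and 204, 214 and 214 in TMEM216+IGF1. The 3 TMEM216 values were the highest of the 12. Its averaged TMEM216 change was 0.16 (SE 0.06, limma adjusted p = 0.176), and 0.10 without Ctrl+IGF1 replicate 3.

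KIF23, the motor subunit of centralspindlin, was at 139, 140.0 and 143 TPM in Ctrl, 125, 133 and 102 in Ctrl+IGF1, 138, 136 and 145 in TMEM216, and 125, 130.2 and 129 in TMEM216+IGF1. As with NDC80, all 6 IGF1 libraries were below all 6 others. The averaged IGF1 change in KIF23 was -0.18 (SE 0.06, limma adjusted p = 0.711), and -0.12 without Ctrl+IGF1 replicate 3. The scaffold ANLN, which links the contractile ring to the membrane, was at 207, 239 and 175 TPM in Ctrl+IGF1 and 237, 263 and 228 in TMEM216+IGF1, and its change there was 0.24 (SE 0.10, limma adjusted p = 0.298), or 0.12 without Ctrl+IGF1 replicate 3. PRC1, which bundles midzone microtubules, and ECT2, an exchange factor needed for cytokinesis, had group means of 284 to 317 and 144 to 188 TPM.

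TOP2A, the topoisomerase that untangles sister chromatids, was at 330.5, 356 and 359 TPM in Ctrl, 292, 358 and 209 in Ctrl+IGF1, 299, 354 and 415 in TMEM216, and 357, 394 and 330.3 in TMEM216+IGF1. The TOP2A change with TMEM216 in the presence of IGF1 was 0.36, or 0.15 without Ctrl+IGF1 replicate 3. For IGF1 in Ctrl cells it was -0.32, or -0.11 without that library. MKI67 encodes the Ki-67 antigen, which coats mitotic chromosomes and is scored in breast tumours as a proliferation index. It was at 104, 108 and 109 TPM in Ctrl, 97.7, 118 and 82.9 in Ctrl+IGF1, 98.3, 122 and 126 in TMEM216, and 123, 122 and 116 in TMEM216+IGF1. For both genes the groups overlapped in each TMEM216 comparison. The MKI67 change with TMEM216 was 0.10 (SE 0.12, limma adjusted p = 0.799) without IGF1 and 0.28 (SE 0.12, limma adjusted p = 0.284) with it, and 0.16 with IGF1 once Ctrl+IGF1 replicate 3 was left out.

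The 41 genes moved together between libraries of the same group. Over the 820 pairs of genes, the median correlation of deviations from the group means was 0.61, and 470 pairs were above 0.5. These 12 libraries share 4 group means and, in each library, 1 scaling, so the value is a description. It was not computed for other features or without Ctrl+IGF1 replicate 3. That library deviated from the means over 12 libraries by a median of -0.315 for the 41 genes. The medians there were -0.26 for the other G2/M genes, -0.25 for the G1/S genes and -0.16 for all features. TOP2A (median correlation with the other 40 of 0.87), CCNB1 and AURKA (both 0.85) followed the rest most closely. UBE2C (-0.82), PTTG1 (-0.77) and CENPA (-0.75) ran opposite to the rest, with AURKB (-0.36) and MAD2L1 (-0.13) also below 0.

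Transcript length moved with this pattern. The longest GENCODE v29 transcript runs from 914 bases for UBE2C, 1070 for PTTG1 and 1452 for CENPA to 10887 for ASPM and 12678 for MKI67. Across the 41 genes, Spearman's rho between length and deviation was -0.63 in Ctrl+IGF1 replicate 3, -0.61 in Ctrl+IGF1 replicate 1, 0.69 in TMEM216 replicate 3 and 0.60 in TMEM216+IGF1 replicate 2, the 4 farthest from 0. The other 8 lay between -0.36 (TMEM216 replicate 1) and 0.49 (TMEM216+IGF1 replicate 1), and replicates differed in sign in every group but TMEM216+IGF1. For those 4 libraries, the values over 12482 features were -0.52, -0.25, 0.32 and 0.26, with the same signs. In Ctrl+IGF1 replicate 3 the 13 shortest genes deviated by a median of -0.21 and the 13 longest by -0.43. In TMEM216 replicate 3 those medians were 0.03 and 0.21. Genes of 1 library share its preparation and are not replicates, and the part of length in the results was not tested.

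**Figure D5:**
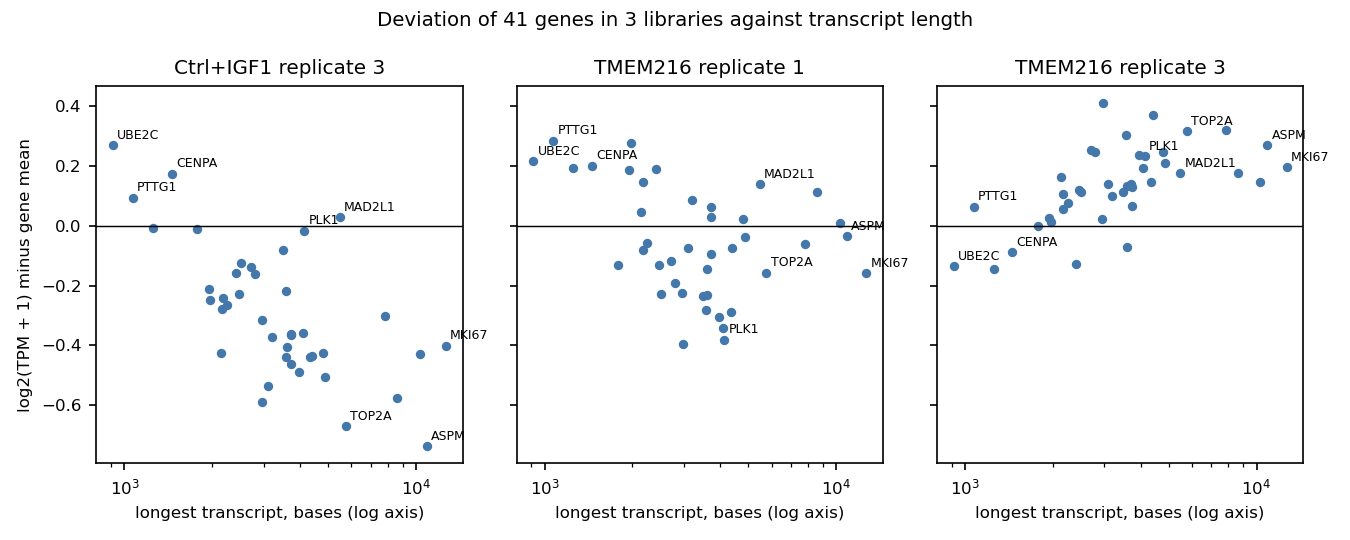
Deviation of the 41 genes from their means (log2 scale) against the length of the longest GENCODE v29 transcript (log axis) in 3 libraries. Long genes such as ASPM and TOP2A lie lowest in Ctrl+IGF1 replicate 3 (rho -0.63) and higher in TMEM216 replicate 3 (rho 0.69), with UBE2C, PTTG1 and CENPA at the short end.

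Of 105 other genes of G2 and mitosis, all tested, 1 passed in any comparison, the averaged one, where 5.22% of all features were called. DEPDC1B was at 53.0, 50.5 and 49.95 TPM in Ctrl, 46.1, 49.9 and 45.3 in Ctrl+IGF1, 66.7, 61.8 and 59.4 in TMEM216, and 54.5, 60.8 and 56.5 in TMEM216+IGF1. All 6 TMEM216 libraries were above all 6 Ctrl libraries, with an averaged change of 0.28 (SE 0.05, limma adjusted p = 0.0101) that passed in all 21 alternatives. The medians of the 105 genes were 0.03 without IGF1, 0.13 with it and -0.12 for IGF1 in Ctrl cells, beside 0.02, 0.15 and -0.16 for the 41 genes.

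Of 50 genes of G1/S and DNA replication, 3 passed in TMEM216 against Ctrl averaged over IGF1, all higher, where 5.22% of all features were called and the median of the 50 was -0.0039. GINS2, a subunit of the replicative helicase, was at 26.3, 28.6 and 29.7 TPM in Ctrl and 25.8, 23.1 and 28.0 in Ctrl+IGF1, against 34.2, 32.9 and 39.2 in TMEM216 and 35.5, 36.5 and 36.1 in TMEM216+IGF1. Every TMEM216 library was above every Ctrl library. The averaged GINS2 change was 0.40 (SE 0.07, limma adjusted p = 0.00464) and passed in all 21 alternatives. The other calls, the helicase subunit MCM5 (0.24, limma adjusted p = 0.0328) and the fork protein TIPIN (0.22, limma adjusted p = 0.0433), ended in 8 and 14 of those alternatives. MCM5 lost its call without any 1 of the Ctrl libraries, TMEM216+IGF1 replicate 1 or replicate 3, TMEM216 replicate 2 and Ctrl+IGF1 replicate 1 (limma adjusted p up to 0.0926, without Ctrl replicate 2). TIPIN lost its call without any library but Ctrl+IGF1 replicate 2 (limma adjusted p up to 0.119, without Ctrl replicate 1). TIPIN was named after its values were seen. Taken separately, 1 of the 50 genes passed with IGF1, higher in TMEM216, where 1.61% of all features were called. Without IGF1, 0 passed, where 1.09% were called.

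Of 34 regulators of the G2/M program and of cell cycle arrest, 32 were tested and 5 passed in the averaged comparison, 1 higher and 4 lower, where 5.22% of all features were called. CDKN2C, an inhibitor of CDK4 and CDK6, rose by 0.31 (SE 0.05, limma adjusted p = 0.00302), from 52.5 to 58.0 TPM in the 6 Ctrl libraries to 64.7 to 73.3 TPM in the 6 TMEM216 libraries. SFN, the 14-3-3 sigma protein that holds CDK1 in the cytoplasm after DNA damage, fell by 0.35 (SE 0.05, limma adjusted p = 0.00215). GADD45A, a stress protein that inhibits the CDK1 and cyclin B1 complex, changed by -0.45 (SE 0.07, limma adjusted p = 0.00431), from 105 to 114 TPM down to 67.2 to 95.6 TPM. PKMYT1, the membrane kinase that phosphorylates CDK1 to hold it inactive, changed by -0.32 (SE 0.06, limma adjusted p = 0.00993). These 4 calls held in all 21 alternatives. MYBL2, the MYB protein that joins MuvB, changed by -0.26 (limma adjusted p = 0.0221), a call that ended in 7 alternatives. These were the fits without any 1 of the Ctrl libraries, TMEM216+IGF1 replicate 1 or replicate 2 and Ctrl+IGF1 replicate 1 (limma adjusted p up to 0.0652, without Ctrl replicate 2) and the length and GC correction (limma adjusted p = 0.0958). Taken separately, 3 regulators passed without IGF1 and 2 with it, where 1.09% and 1.61% of all features were called. GADD45A, PKMYT1 and MYBL2 were named in this comparison after their values were seen.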

How the data were processed

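RNA of 12 libraries (4 groups of 3) was sequenced after TRIzol extraction and a TruSeq RNA kit, per the labels' protocols. The authors deposited TPM per gene, and HISAT2, StringTie and RSEM are named, per the submitters' processing notes. Tool versions, the genome build, the counting strand and the read depth are not stated there or elsewhere in the labels, so no counting interval is given. The table held 21574 features, 1131 of them with assembler names in place of symbols.

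Features with at least 1 TPM in at least 3 libraries (13071, all 41 genes among them) were analysed as log2(TPM + 1), which understates the change of low genes. One limma model (limma 3.58.1, R 4.3.3, trended variance, 4 groups) gave 7 contrasts with Benjamini-Hochberg adjustment over all tested features, a threshold of 0.05 and 95% intervals. The script was tested on simulated data. Other settings were quantile and median-of-ratios scaling, a pseudocount of 0.1, a minimum of 5 TPM or none, no variance trend, only the libraries compared, a replicate block, each library left out, 2 libraries left out together, and a length and GC correction. Transcript length came from GENCODE 29, and tables were handled with Python 3.11.15 and pandas 2.3.3.

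The 41 genes and the other lists were chosen with earlier results of these data known. Genes given with values were 18 set by role, the 4 with the smallest p in each contrast and the highest and lowest by mean level, with the genes past the threshold in the other G2/M list and the 2 with the smallest p in the others. TTK, ANLN, BIRC5, CENPA and the members given by group means or range were added after their values were seen.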

Additional observations from a re-analysis of the deposited data

How the results depend on the processing

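No called gene changed direction under any setting, while medians of the 41 genes changed sign in 3 comparisons. Among these was the interaction, with a median of 0.14 in the main fit and of 0.05 to 0.24 when 1 library was left out. In TMEM216 against Ctrl averaged over IGF1, the 0 called genes of the set became 1 under quantile normalization (CENPE), 3 under median-of-ratios scaling (CENPE, KIF11 and KIF20A), 1 when both Ctrl+IGF1 replicate 3 and TMEM216 replicate 1 were left out, and 4 with the length and GC correction (those 3 and PTTG1), which was chosen after seeing the data. All features called were 7.34%, 7.24%, 8.12% and 9.52% under these settings, beside 2.44%, 7.32%, 2.44% and 9.76% of the 41 genes. Leaving out 1 library gave 0 to 3 calls there. Without Ctrl+IGF1 replicate 2 there were 3 (7.32% of the 41), where 6.93% of all features were called. Without Ctrl+IGF1 replicate 3 there was 1 (2.44%), where 6.27% of all features were called. With IGF1, leaving out 1 library gave 0 to 2 calls. The 2 calls (4.88%) came without Ctrl+IGF1 replicate 2, where 3.53% of all features were called. The interaction median was 0.032 under median-of-ratios scaling, 0.013 with the length and GC correction and -0.012 without both libraries, with 15 of 41 genes above 0. The cause was not tested. Leaving out 1 library moved the median of the 41 genes from -0.03 to 0.07 without IGF1, from 0.06 to 0.21 with IGF1, from -0.24 to -0.06 for IGF1 in Ctrl cells, from -0.07 to 0.01 for IGF1 in TMEM216 cells, and from 0.02 to 0.11 averaged over IGF1. Over named members and settings, 4364 values kept their side of the threshold and 15 newly passed. For named genes of the other lists, 88 values lost the threshold, 10 newly passed and 1261 kept their side. With a replicate block, 0 of 41 genes were called in each comparison, and calls over all features in TMEM216 against Ctrl without IGF1 went from 143 to 77. MCM5 and TIPIN lost their averaged calls under the block (limma adjusted p = 0.0686 and 0.0575). Libraries with the same number correlated between -0.29 and 0.17 (median 0.02), so the numbers were not taken as pairs. Read depth is unknown.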
